A study of Solanum lycopersicum with 8 samples.

Results

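The 4 tomato genes listed as ZAT-type C2H2 zinc finger stress regulators, Solyc01g107170, Solyc04g077980, Solyc05g054650 and Solyc06g075780, were followed in seedlings given the TOR inhibitor Torin2. They were taken by gene identifier, and all 4 were found among the 34688 genes listed. The study names the first *SlZAT10* and, in its list of changed genes, calls the second *ZAT6* and the third *ZAT11*. Because 3 of the 4 carry names from a list of genes that changed in these same libraries, their direction is not independent evidence of a response of the family. None of the sources used here annotates Solyc06g075780, so it is called by its identifier throughout, and its place among the ZAT-type genes was not checked. The genes lie on chromosomes 1, 4, 5 and 6, as their identifiers show.

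The plants were wild-type tomato of the dwarf cultivar Micro-Tom, 10 days old and raised at 25 °C on a solid medium. The mock group received water with 0.1% DMSO, the solvent, and the Torin2 group received 5 µM Torin2, in both cases for 2 h. Entire seedlings were extracted, with 4 biological replicates in each group. No group carried a transgene or was cold-treated, so the comparison is between the inhibitor and its solvent at the growth temperature.

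TOR is a protein kinase that promotes growth and translation when nutrients and energy are ample, and Torin2 blocks its active site. C2H2 zinc finger proteins bind DNA through small folds in which a pair of cysteines and a pair of histidines hold a zinc ion. In Arabidopsis, the ZAT group of this family carries a short repression motif called EAR, and its members respond quickly to cold, salt, drought, strong light, wounding and reactive oxygen.

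*SlZAT10* is also the gene among the 4 for which the study designed a quantitative PCR assay. The primers are shown because they define the stretch of transcript by which *SlZAT10* can be measured apart from sequencing. Each is written 5′ to 3′, and lower case is used throughout because no base is singled out.
*SlZAT10* forward: ccaccggagacgatgatagc
*SlZAT10* reverse: acgattgttaccgccgagtt
Both primers are 20 bases long, with a GC content of 60.0% for the forward and 50.0% for the reverse primer.

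Levels are given as FPKM, fragments scaled to the length of the gene model and to the number of mapped fragments in the library. The 8 libraries held between 36989257 and 39868131 fragments, as recovered from the deposited values. By their side of the main axis of variation left after the group means were removed, the libraries were split into 2 kinds. This axis carried 53.6% of that variation. Such a split always gives 2 kinds, each with libraries of both groups, and whether a gap divides them was not tested. What is called the first kind held Torin2 replicates 2 and 4 along with mock replicates 1 and 2. The remaining libraries, Torin2 replicates 1 and 3 along with mock replicates 3 and 4, are called the second. No label describes these kinds, and the changes of the 4 genes are given within them too. In bulk RNA, fewer cells of a type and less RNA per cell cannot be told apart.

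Leaf and root markers were both present, as entire seedlings hold. The summed level of 2 Rubisco small subunit genes, which serve carbon fixation in green tissue, ranged from 10213 to 11251 FPKM in mock and from 4082 to 5651 FPKM in Torin2 libraries. The summed level of 4 root genes, among them a pair coding for Casparian strip proteins and a root hair gene, ranged from 17.7 to 23.6 FPKM in mock and from 5.85 to 9.90 FPKM in Torin2 libraries. Of these markers, 1 of 2 leaf genes and 4 of 4 root genes were called lower, against 671 of all 22330 genes tested. In Torin2 libraries, 2 single values of root genes were at 0. The markers came from the study's list of changed genes, and their part in the results for the zinc finger genes was not tested.

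Torin2 raised *SlZAT10*, *ZAT6* and *ZAT11* and no change in Solyc06g075780 was detectable with 4 libraries a group. A gene was called when limma gave a Benjamini-Hochberg adjusted p under 0.05 and a log2 fold change beyond 1. By this rule 3 of the 4 genes were called higher and 0 lower, where 5.31% of the 22330 genes tested were called higher. The median log2 fold change of the 4 genes was 1.38, against 0.16 over all genes tested. For the same 3 genes every Torin2 library lay above every mock library, which held for 11.4% of the genes tested. All 4 genes passed the filter on low values.

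**Figure D1:**
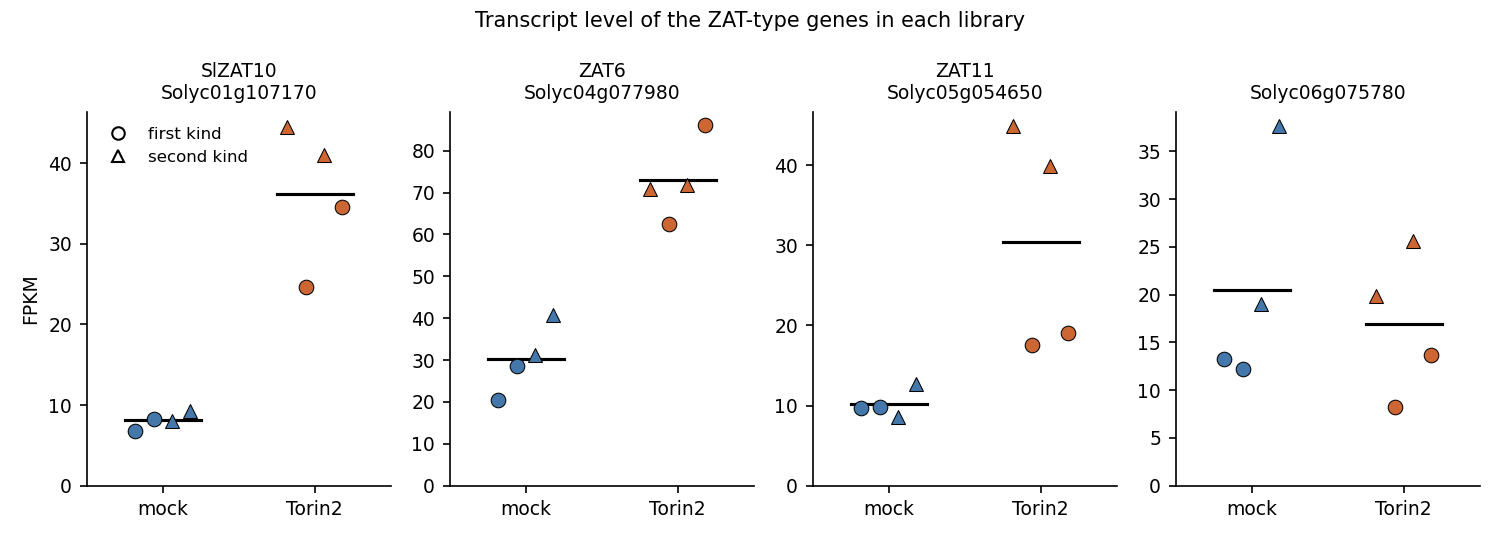
FPKM of each gene in every library (y axis, linear and starting at 0, with a scale of its own in each panel) for mock and Torin2 seedlings. Circles are the first kind of libraries, triangles the second, and bars are group means of 4 libraries. The groups lie apart for *SlZAT10*, *ZAT6* and *ZAT11* and overlap for Solyc06g075780, where the means are 20.5 and 16.9 FPKM.

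*SlZAT10* is the tomato counterpart, by name, of Arabidopsis ZAT10, a repressor of transcription induced by cold, salt and drought. Its level was 6.80, 8.28, 8.05 and 9.22 FPKM in mock replicates 1 to 4. After Torin2 it was 44.5, 24.6, 41.0 and 34.5 FPKM. The groups did not overlap, and Torin2 replicate 2, the lowest treated library, still stood well above the highest mock library. Behind these values were 339 to 474 fragments in mock and 1222 to 2292 in Torin2 libraries. The mean rose 4.47-fold, and the fitted log2 fold change of FPKM + 0.1 was 2.12, with a 95% interval from 1.62 to 2.62 (limma, SE 0.24, Benjamini-Hochberg adjusted p = 4.06e-05). An exact permutation test of this gene alone gave a two-sided p of 0.0286, the smallest that 4 against 4 libraries allow. It was the strongest responder of the 4, at rank 129 of 22330 genes by log2 fold change. By level, it stood at the percentile 55.9 of all tested genes in mock libraries and at 82.8 in Torin2 libraries.

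*ZAT6* shares its name with an Arabidopsis regulator known from phosphate starvation and cadmium stress. In mock replicates 1 to 4 it stood at 20.5, 28.5, 31.2 and 40.8 FPKM. In Torin2 replicates 1 to 4 it stood at 70.9, 62.6, 71.9 and 86.1 FPKM. The groups did not overlap, although the mock libraries spread widely, from replicate 1 at the low end to replicate 4 at the high end. The libraries held 617 to 1264 fragments of it in mock and 1874 to 2616 in Torin2 seedlings. Its mean rose 2.41-fold, with a log2 fold change of 1.30 and a 95% interval from 0.81 to 1.79 (limma, SE 0.23, Benjamini-Hochberg adjusted p = 0.00215, exact permutation p = 0.0286). *ZAT6* was the most abundant of the 4 genes in every library, and ranked 735 among all genes by its change.

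*ZAT11* shares its name with an Arabidopsis gene tied to hydrogen peroxide signalling and cell death. Its mock level was 9.65, 9.84, 8.58 and 12.7 FPKM. Its level after Torin2 was 44.9, 17.6, 39.9 and 19.1 FPKM. The groups did not overlap, but the treated libraries split into a high pair, replicates 1 and 3, and a low pair, replicates 2 and 4, which are the second and the first kind of libraries. It was backed by 157 to 230 fragments in mock and 309 to 817 in Torin2 libraries. The mean rose 2.98-fold, with a log2 fold change of 1.46 and a 95% interval from 0.81 to 2.10 (limma, SE 0.30, Benjamini-Hochberg adjusted p = 0.00646, exact permutation p = 0.0286). The call was lost when limma-voom was run on the recovered fragments, with a log2 fold change of 1.27 and a Benjamini-Hochberg adjusted p of 0.0525.

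Solyc06g075780 had 13.3, 12.2, 19.0 and 37.7 FPKM in mock replicates 1 to 4. It had 19.9, 8.27, 25.6 and 13.7 FPKM in Torin2 replicates 1 to 4. The groups overlapped over most of their range, with mock replicate 4 the highest of the 8 libraries and Torin2 replicate 2 the lowest. Its mean was 20.5 ± 11.8 FPKM in mock and 16.9 ± 7.52 FPKM in Torin2 libraries (SD, n = 4). The log2 fold change was -0.25, with a 95% interval from -1.05 to 0.55 (limma, SE 0.38, Benjamini-Hochberg adjusted p = 0.702, exact permutation p = 0.714). This interval still holds a rise of up to 0.55 and does not show that the gene was unaffected. Without mock replicate 4 the value was 0.09, and without Torin2 replicate 2 it was 0.05, so its sign rests on single libraries.

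**Figure D2:**
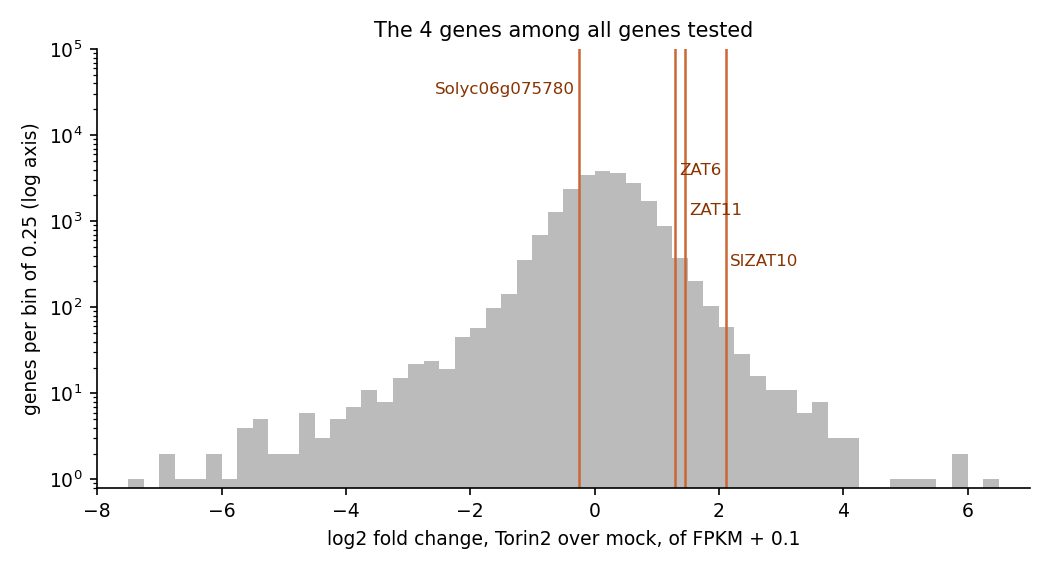
Number of genes per bin of log2 fold change (x axis, Torin2 over mock, of FPKM + 0.1; y axis on a log scale) for the 22330 genes tested, with a line for each of the 4 genes. *SlZAT10* lies in the upper tail at 2.12, *ZAT11* and *ZAT6* follow at 1.46 and 1.30, and Solyc06g075780 lies near the middle at -0.25.

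The spread between replicates was larger than counting alone would give for all 4 genes. The coefficient of variation of *SlZAT10* was 12.3% in mock and 24.2% in Torin2 libraries, where the mean fragment number alone would give 4.92% and 2.35%. For *ZAT6* the spread was 27.6% in mock and 13.4% after Torin2. For *ZAT11* it went the other way, with 17.1% in mock and 46.2% after Torin2. Solyc06g075780 varied most in mock libraries, at 57.6%, and varied by 44.5% after Torin2.

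Between the kinds of libraries, the fitted changes of the 3 responding genes differed in size and order. *SlZAT10* had a log2 fold change of 1.94 in libraries of the first kind and 2.30 in those of the second. *ZAT6* changed more in the first kind, by 1.60, than in the second, by 1.00, where it lay at the fold cut-off and was not called. *ZAT11* did the reverse, with 0.90 in the first kind, under the cut-off, and 2.01 in the second. Solyc06g075780 had the same value of -0.25 in both. Each kind holds only 2 libraries per group, and the difference between kinds was not tested. The mean level of Solyc06g075780 differed more between kinds than between treatments. It was 12.7 and 11.0 FPKM in mock and Torin2 libraries of the first kind. In those of the second it was 28.4 and 22.7 FPKM. The kinds were drawn from the spread of these same libraries, this gene included, so this difference is not independent of them.

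**Figure D3:**
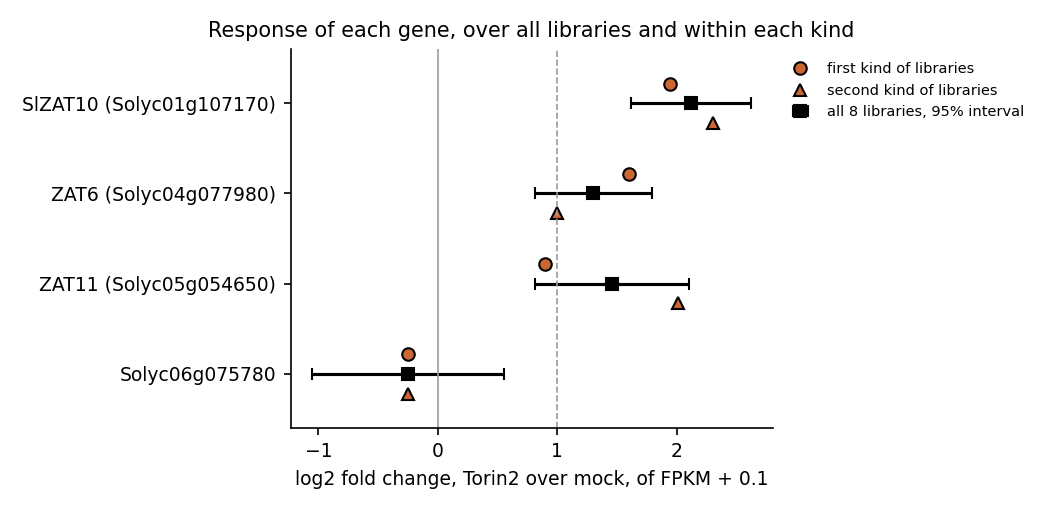
Log2 fold change of each gene (x axis, Torin2 over mock, of FPKM + 0.1). Squares with bars are the fit over all 8 libraries with its 95% interval, circles the first and triangles the second kind of libraries, and the dashed line is the cut-off of 1. *ZAT6* and *ZAT11* shift in opposite directions between kinds, from 1.60 to 1.00 and from 0.90 to 2.01.

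Whether the 4 genes responded to different degrees was tested on the log2 ratio of each pair within a library, for 6 pairs. The change of *SlZAT10* exceeded that of *ZAT6* by 0.82 ± 0.21 (SE) on the log2 scale (exact permutation p = 0.0286, Benjamini-Hochberg adjusted p = 0.0343 over the 6 pairs). In mock libraries the log2 ratio of *SlZAT10* to *ZAT6* ran from -2.13 to -1.58 and in Torin2 libraries from -1.34 to -0.67, so the groups were apart. *SlZAT10* also exceeded *ZAT11*, by 0.66 ± 0.22, with an adjusted exact permutation p of 0.0343. Its ratio to *ZAT11* ran from -0.50 to -0.09 in mock and from -0.01 to 0.85 in Torin2 libraries, a narrow gap.

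Against Solyc06g075780, the change of *SlZAT10* was larger by 2.37 ± 0.36, that of *ZAT6* by 1.55 ± 0.40 and that of *ZAT11* by 1.71 ± 0.34. Each of these had an adjusted exact permutation p of 0.0343. *ZAT6* and *ZAT11* could not be separated, with a difference of -0.16 ± 0.40 (exact permutation p = 0.743), and the wide error leaves room for a sizeable difference in either direction. For the other 5 pairs, leaving out mock replicate 1, 3 or 4 brought the adjusted exact permutation p to between 0.0571 and 0.103. Without these replicates in turn, *SlZAT10* minus *ZAT6* was 0.91, 0.79 and 0.73, and *SlZAT10* minus *ZAT11* was 0.60, 0.74 and 0.62. The same omissions gave 2.45, 2.35 and 2.09 for *SlZAT10*, 1.53, 1.56 and 1.36 for *ZAT6* and 1.84, 1.62 and 1.47 for *ZAT11*, each minus Solyc06g075780. *SlZAT10* minus *ZAT11* also lost its call without mock replicate 2, at 0.69, and without Torin2 replicate 4, at 0.49. In all these fits the ratios of the groups stayed apart, as they must, since leaving out a library cannot make separate groups overlap. With groups of unequal size, assignments in the opposite direction can also count as extreme, which raises p. Within the kinds of libraries, *SlZAT10* minus *ZAT6* was 0.35 in the first and 1.30 in the second, and *SlZAT10* minus *ZAT11* was 1.04 and 0.29.

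FPKM is scaled for the length of the gene model, so the levels of the 4 genes can be set in order. The models run from 459 bp for *ZAT11* to 1299 bp for *SlZAT10*, and how well the scaling holds over these lengths was not tested. In all 4 mock libraries the order was *ZAT6*, Solyc06g075780, *ZAT11* and *SlZAT10*, from high to low. *ZAT6* and Solyc06g075780 overlapped in range, as did Solyc06g075780 with *ZAT11* and *ZAT11* with *SlZAT10*, so no neighbours in this order had ranges apart. Within a mock library, though, the log2 ratio of neighbours never changed sign. It ran from 0.11 to 1.22 for *ZAT6* over Solyc06g075780, -1.57 to -0.30 for *ZAT11* over Solyc06g075780 and -0.50 to -0.09 for *SlZAT10* over *ZAT11*. *ZAT6* was apart from both *ZAT11* and *SlZAT10*, and Solyc06g075780 was apart from *SlZAT10*.

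After Torin2, *ZAT6* was first and Solyc06g075780 last in 4 of 4 libraries. *SlZAT10* passed from last place to above *ZAT11* in 3 of 4 libraries, with replicate 1 the exception. *ZAT6* was apart from each of the others, while *SlZAT10*, *ZAT11* and Solyc06g075780 overlapped.

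The summed level of the 4 genes was 69.1 ± 21.9 FPKM in mock and 156 ± 31.2 FPKM in Torin2 libraries (SD, n = 4), a 2.26-fold difference. The make-up of this sum shifted with treatment. *SlZAT10* took 9.18 to 14.1% of it in mock and 21.8 to 24.7% in Torin2 libraries, a narrow range that did not overlap with mock. Solyc06g075780 took 20.7 to 37.6% in mock and 7.31 to 14.4% in Torin2 libraries, also without overlap. The share of *ZAT6* overlapped, at 40.6 to 48.5% and 39.3 to 56.1%, and so did that of *ZAT11*, at 12.6 to 19.2% and 12.4 to 24.9%. The shares are parts of 1 total, so a rise in 1 gene lowers the share of the rest.

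**Figure D4:**
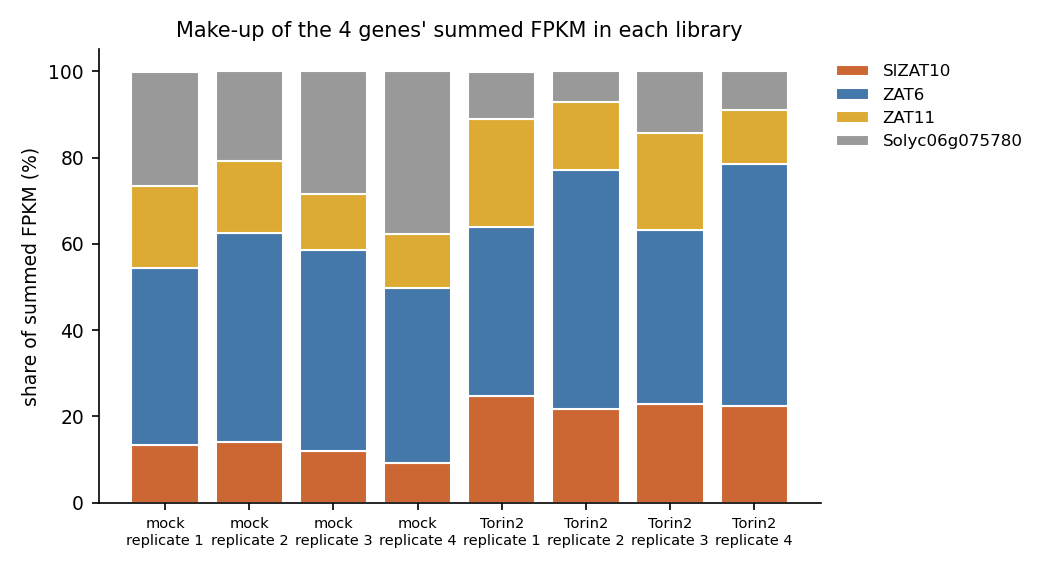
Share of the 4 genes' summed FPKM taken by each gene (y axis, percent) in every library (x axis). *SlZAT10* goes from 9.18 to 14.1% in mock to 21.8 to 24.7% in Torin2 libraries, while *ZAT6* holds the largest share in every library.

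Solyc06g075775 sits next to Solyc06g075780 in the numbering of chromosome 6. The study lists it under the name *ZAT11* as well, although its description there reads ZAT12, so it is given here by its identifier. It was scarce, at 0.688, 0.304, 0.782 and 1.03 FPKM in mock replicates 1 to 4. After Torin2 it was 6.11, 2.01, 2.27 and 0.741 FPKM. Torin2 replicate 4 fell within the mock range and replicate 1 stood far above the rest, on only 5 to 17 fragments in mock and 12 to 101 in Torin2 libraries. Its log2 fold change was 1.59 (limma, SE 0.51), with a Benjamini-Hochberg adjusted p of 0.0514, so it was not called. Without Torin2 replicate 4 its value was 2.07 and it was called. Its neighbour Solyc06g075780 was far more abundant in mock libraries and showed no such difference.

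The study's list names 2 further ZAT genes, which moved in opposite directions. *ZAT18* had 2.35, 0.436, 1.73 and 2.83 FPKM in mock replicates 1 to 4 and 16.7, 5.35, 17.2 and 6.43 FPKM after Torin2. The groups did not overlap, and Torin2 replicates 1 and 3 were the high pair, the same libraries as for *ZAT11*. Its log2 fold change was 2.63 (limma, SE 0.50, Benjamini-Hochberg adjusted p = 0.00368), larger than that of any of the 4 genes, at rank 55. It kept no call within the first kind of libraries, where its value was 2.38. *ZAT5* had 0.550, 0.536, 0.0921 and 0.325 FPKM in mock libraries and 0.0232, 0.0240, 0.0497 and 0 FPKM after Torin2. It was called lower by limma with a Benjamini-Hochberg adjusted p of 0.0224, but its Torin2 libraries held 0 to 2 fragments each, under a floor of 3, so no fold is given. Its call was lost without mock replicate 1, 2 or 4 or Torin2 replicate 4, where limma gave Benjamini-Hochberg adjusted p-values of 0.0671, 0.0712, 0.0651 and 0.0567, and in the second kind of libraries. Of these 3 ZAT-named genes, 1 was called higher and 1 lower, against 1186 and 671 of all 22330 genes tested.

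The study also groups *SlZAT10*, *ZAT6* and *ZAT11* under response to chitin, a term for genes that react to the wall material of fungi. Solyc06g075780 is not in that group, which was picked from genes changed in these libraries and is not independent evidence of its direction. Of its 12 other genes, 11 were called higher and 0 lower, against 5.31% called higher over all genes tested, and the gene not called was Solyc06g075775. Their log2 fold changes had a median of 1.61 and ran from 1.16 to 1.95. In 10 of the 12, the Torin2 libraries were all above the mock libraries, against 11.4% of the genes tested. The response of *SlZAT10*, at 2.12, lay above this range, and those of *ZAT11* and *ZAT6* lay inside it. Without mock replicate 4 the number called was 7.

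*ATL31*, named for an Arabidopsis ubiquitin ligase of the carbon and nitrogen response, was the gene in this group closest to *SlZAT10*. It had 10.5, 10.6, 7.27 and 7.64 FPKM in mock and 23.4, 34.6, 39.8 and 44.5 FPKM in Torin2 libraries, with a log2 fold change of 1.95 (limma, SE 0.25, Benjamini-Hochberg adjusted p = 0.000158). Unlike for *SlZAT10*, its lowest treated library was Torin2 replicate 1. *WRKY40*, named for a defence regulator of Arabidopsis, had 4.10 to 5.02 FPKM in mock and 9.63, 11.6, 6.67 and 19.1 FPKM in Torin2 libraries. Its log2 fold change of 1.22 (limma, SE 0.30, Benjamini-Hochberg adjusted p = 0.0147) became 0.95 and lost its call without Torin2 replicate 4, and it was 1.74 among libraries of the first kind but 0.70 among those of the second. The transcription factors *MYB77*, *SCL14* and *HSFB2A* rose by log2 fold changes of 1.63, 1.66 and 1.69. These 3 and *ATL31* kept their calls in all 8 fits without a single library.

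The 3 genes named *ERF1A*, for ethylene response factors, were called at 1.70 (Solyc08g007230), 1.23 (Solyc08g078170) and 1.83 (Solyc08g078180). Among libraries of the first kind the 3 were at 2.06, 1.52 and 2.74. Among those of the second they were at 1.33, 0.95 and 0.92, and none was called. Solyc08g007230 and Solyc08g078180 kept their calls without any single library. Solyc08g078170 kept its call in 3 of 8 such fits, and lost it without mock replicates 1, 2 and 4 and Torin2 replicates 3 and 4, at 1.02, 1.26, 1.26, 1.04 and 1.22. *ERF091*, another gene named for an ethylene response factor, was called at 1.16 and kept its call in 1 of 8 fits, the one without Torin2 replicate 4. Without mock replicates 1 to 4 it was at 1.06, 1.25, 1.13 and 1.21, and without Torin2 replicates 1 to 3 at 1.02, 1.17 and 1.15.

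The 2 genes named *MAPKKK5*, for kinases at the head of a signalling cascade, were called at 1.16 (Solyc02g065110) and 1.36 (Solyc12g088940). Solyc02g065110 kept its call in 4 of 8 fits, and lost it without mock replicates 3 and 4 and Torin2 replicates 2 and 4, at 1.12, 1.01, 1.03 and 1.08. Solyc12g088940 kept its call in 2 of 8, and lost it without mock replicates 2, 3 and 4 and Torin2 replicates 1, 2 and 4, at 1.40, 1.11, 1.43, 1.28, 1.35 and 1.21. The calls of *SlZAT10*, *ZAT6* and *ZAT11* were kept in all 8.

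**Figure D5:**
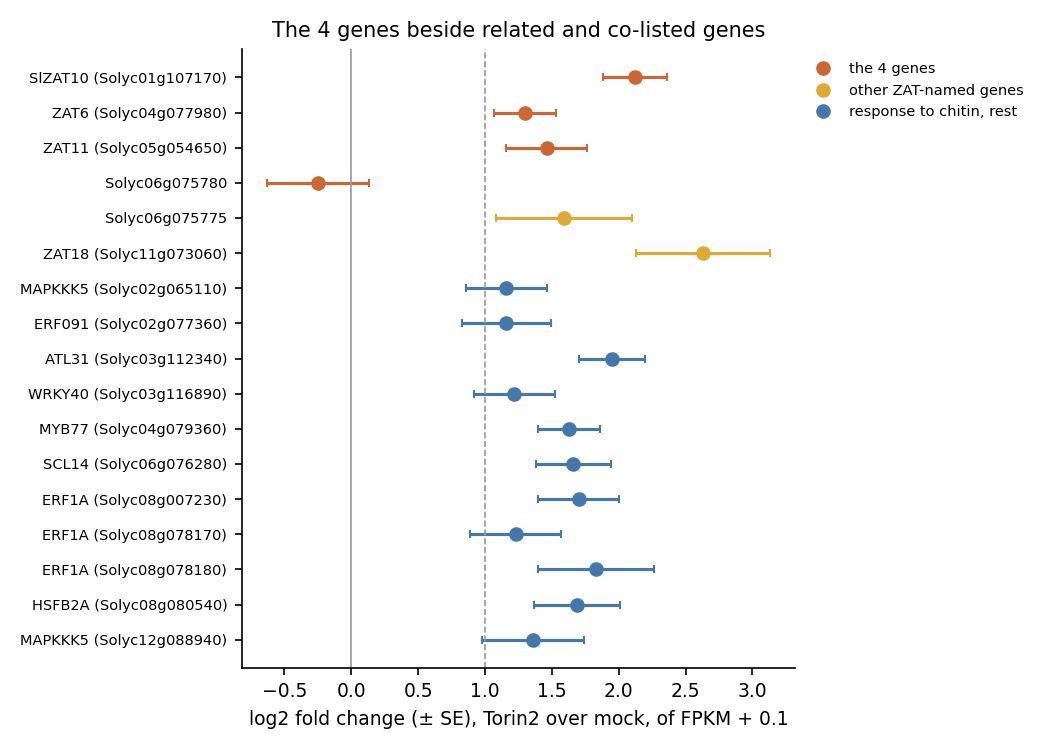
Log2 fold change with its SE (x axis, Torin2 over mock, of FPKM + 0.1) for the 4 genes, Solyc06g075775, *ZAT18* and the rest of the response to chitin group, with the dashed line at the cut-off of 1. All the genes drawn are to the right of 0 except Solyc06g075780 at -0.25, and *ZAT5* is left out for its few fragments.

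*SlZAT10* was singled out by the study together with *SlCBF1* and *SlCAMTA3*, regulators of the cold response. Cold-induced CBF proteins switch on cold tolerance genes in Arabidopsis, and CAMTA3 binds calmodulin and acts upstream of them. *SlCBF1* rose by a log2 fold change of 1.14 (limma, SE 0.29, Benjamini-Hochberg adjusted p = 0.0196). *SlCAMTA3* rose by 1.44 (limma, SE 0.24, Benjamini-Hochberg adjusted p = 0.00147), a value that was 0.92 and under the cut-off once the trend with gene length was removed. *SlZAT10*, at 2.12, thus had the largest fitted change of the 3, a difference that was not tested. The call for *SlCBF1* was lost without mock replicate 1, 2 or 4 or Torin2 replicate 1, at 1.04, 1.10, 1.17 and 0.93, while that for *SlZAT10* held in all 8 such fits, between 2.01 and 2.29. *SlCBF1* also lost its call with median-of-ratios scaling, at 0.98, quantile normalization, at 0.91, limma-voom, at 0.98, a pseudocount of 1 FPKM, at 0.94, and in the first kind of libraries, at 0.98.

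The genes whose pattern over the 8 libraries was most like each of the 4 were sought among the 18546 genes that averaged 1 FPKM or more, by Pearson's r of log2 FPKM. These values are a description, since the points share their libraries and the difference between groups. Closest to *SlZAT10* were Solyc08g078510, a GRAM domain protein gene at r = 0.995, and Solyc04g071600 and Solyc04g071590, abscisic acid stress ripening genes at 0.993 and 0.992. The mean of Solyc08g078510 went from 46.9 to 304 FPKM, and that of Solyc04g071590 from 0.821 to 50.7 FPKM.

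Closest to *ZAT6* were Solyc01g109710 at 0.989, which has no description in the study's list, then Solyc01g109140, a divinyl ether synthase gene, and Solyc04g007300, listed as *BHLH75*, both at 0.986. Closest to *ZAT11* were Solyc09g011520, a glutathione S-transferase-like gene at 0.991, Solyc10g074730, a late embryogenesis abundant gene at 0.989, and Solyc11g150122 at 0.985. Solyc06g075780 had weaker neighbours, Solyc06g053640 at 0.972, Solyc09g011660 at 0.952 and Solyc03g031800 at 0.951, whose log2 fold changes were -0.07, 0.00 and -0.10. The genes listed here for each of the 4 did not overlap, but such short lists cannot tell whether the 4 shared a pattern. Over the 8 libraries, r was 0.94 for *SlZAT10* with *ZAT6*, 0.93 for *SlZAT10* with *ZAT11* and 0.81 for *ZAT6* with *ZAT11*. For Solyc06g075780 with *SlZAT10*, *ZAT6* and *ZAT11* it was -0.00, 0.07 and 0.22. In deviations from group means, the same pairs had r of 0.53, 0.84 and 0.14, then 0.81, 0.64 and 0.74.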

How the data were processed

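RNA-seq libraries from total RNA of entire seedlings were sequenced by the authors as paired reads of 150 bp, aligned with HISAT2 to the tomato genome and counted per gene. The authors' processing notes also name fastp, FastQC, SAMtools, HTSeq, DESeq and DESeq2, and the authors used edgeR for their own calls, with cut-offs of 0.05 and a log2 fold change of 1 that were kept here. The authors deposited FPKM per gene and library, which is the unit of the main fits. The TPM and fragment numbers used elsewhere in the text were derived from it. Comparison columns were not used, and 0 value columns were left unassigned.

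Low values are whole multiples of what 1 fragment is worth, from which depth, model length and fragments were recovered (99.73 to 99.82% of each library's fragments). Genes averaging 0.1 FPKM or more (22330 of the 25571 above 0) were tested with limma 3.58.1 in R 4.3.3 on log2(FPKM + 0.1), with a variance trend and Benjamini-Hochberg adjustment over all of them. A fold change on this scale understates the change of low genes. Pairs of genes were compared by exact permutation over 70 assignments. Fits were tested on simulated data. P-values rest on the spread between these 4 biological replicates per group, and for limma also on the variance trend over all genes tested.

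The genes and lists were chosen with earlier results of these data known. The text names the 4 genes, the other ZAT-named genes, the listed genes and, for each of the 4, the 3 genes most like it. Gene names are from the study's list. A planned list of two-finger genes could not be made, since the reference table pairs no gene with the identifiers of the file. Shared reads between near-identical genes were not examined, and whether counting used strand is not given in the sources used here. Alternatives covered pseudocount, filter, scaling, variance, replicate block, gene length, kind of library, fragment counts and left-out libraries.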

Additional observations from a re-analysis of the deposited data

Results flagged for a closer look

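Among 52 groups of 4 libraries checked for a single library far from the rest, 1 was flagged, and chance alone flags about 1 in 20. *HSFB2A*, a heat shock factor gene of the response to chitin group, stood at 2.39 FPKM in Torin2 replicate 1, against 4.11 to 4.54 FPKM in the other Torin2 libraries, a gap of 0.843 of the group's range that passes Dixon's critical value for 4 libraries. None of the 4 zinc finger genes was flagged.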

How the results depend on the processing

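Over 26 alternatives, *SlZAT10* kept its call throughout, between 1.94 and 2.30. *ZAT6* lost its call against a minimum log2 fold change of 1 (treat), at 1.30, and in the second kind of libraries, at 1.00. *ZAT11* lost it with treat, at 1.46, with limma-voom, at 1.27, and in the first kind, at 0.90. With treat 1 of the 4 genes was called. Leaving out single libraries gave 1.13 to 1.46 for *ZAT6*, 1.23 to 1.68 for *ZAT11* and -0.49 to 0.09 for Solyc06g075780, whose sign reversed to 0.09 without mock replicate 4 and to 0.05 without Torin2 replicate 2. Over all genes tested, the median log2 fold change was 0.16 and the calls 1186 higher and 671 lower, while scaling by median of ratios gave 0.01 with 768 and 1011, and voom 0.01 with 796 and 1067. No direction of the 4 genes changed under either.

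Of the other ZAT-named genes, the number called higher was 2 with a filter at 1 FPKM, the length trend removed, kind as a covariate, the replicate block, the second kind alone or without Torin2 replicate 4 (range 1 to 2 over left-out libraries), and 0 with treat or in the first kind. Of the response to chitin genes it was 7 with a pseudocount of 1 FPKM or with TPM, 0 with treat, 5 in the second kind, and 7 to 9 over left-out libraries. Lists under every setting and fits within a kind were chosen after seeing the data, and causes were not tested.

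Differences between genes ranged over left-out libraries from 0.70 to 0.92 for *SlZAT10* minus *ZAT6*, 0.49 to 0.78 for *SlZAT10* minus *ZAT11*, 2.09 to 2.58, 1.32 to 1.79 and 1.47 to 1.90 for *SlZAT10*, *ZAT6* and *ZAT11* minus Solyc06g075780, and -0.42 to 0.08 for *ZAT6* minus *ZAT11*, which reversed to 0.08 without Torin2 replicate 1 and to 0.02 without Torin2 replicate 3. In the first kind, *SlZAT10* minus *ZAT6* was 0.35, *SlZAT10* minus *ZAT11* 1.04, *ZAT6* minus *ZAT11* 0.69 and *ZAT11* minus Solyc06g075780 1.16. In the second these were 1.30, 0.29, -1.01 and 2.26.

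Deviations of same-numbered samples correlated with mixed sign (-0.38, 0.38, 0.40 and -0.25), which does not tell whether they were handled together. With the replicate block, 1235 genes were called higher against 1186, and *SlZAT10* stayed at 2.12, *ZAT6* at 1.30, *ZAT11* at 1.46 and Solyc06g075780 at -0.25, with limma adjusted p of 0.000167, 0.00271, 0.00854 and 0.638. For the pair differences of 0.82, 0.66, 2.37, 1.55 and 1.71, a paired exact test gave p = 0.125, the smallest it allows. The alternatives planned for two-finger genes were not run.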
